A study of Mus musculus with 2 samples.

Results

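The cells described here are the 238 barcodes, of 6983 in both libraries, that carried RNA of the lectin genes Cd209a and Mgl2 without much RNA of other lung cells. A barcode was a member when it held at least 3 unique molecular identifiers (UMIs) of Cd209a and Mgl2 together. It also had to hold fewer than 5 UMIs of Ear1, Ear2 and Marco, fewer than 5 of Ccr7, Il4i1 and Fscn1, and fewer than 3 of Mki67 and Top2a. Per 10000 UMIs, the limits were below 500 for Sftpc, below 1000 for Scgb1a1 and below 10 for Foxj1, Ccdc153 and Tmem212 together. All of these rule genes chose the cells, so their levels are given as a description. The Control library gave 87 members and the NAPH library 151.

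The study profiled lung cells of adult C57BL/6 mice after flow sorting for Epcam, which encodes a surface protein of epithelia. RNA was counted in droplets with a single-cell kit that reads the 3′ ends of transcripts. There was 1 library of Control lung and 1 of lung with the injury labelled NAPH, and both groups share the strain, the tissue and the sort. The sources used here do not give the dose, the time since injury or how many animals were pooled. With 1 library per group no test between the groups was possible, and each difference below is between these 2 libraries. Shares carry exact binomial and ratios exact Poisson 95% intervals, given in parentheses, which cover counting error only.

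Cd209a encodes a relative of DC-SIGN, a C-type lectin with which dendritic cells bind sugars on microbes, and Mgl2 encodes a lectin for galactose-type sugars. In mouse tissues these lectins mark dendritic cells of the CD11b type, but some macrophages and monocyte-derived cells carry them too. Dendritic cells of this type take up antigen, present it on MHC class II and help to start helper T cell responses. The other main type, which carries Xcr1 and Clec9a, depends on the transcription factor Irf8 and presents antigen from dead cells to cytotoxic T cells. Cd209a lies on chromosome 8 at 3743397 to 3748984 (minus strand) and Mgl2 on chromosome 11 at 70130329 to 70137550 (plus strand) in GRCm38.

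Members held 691420 UMIs in Control and 1128712 in NAPH, with medians of 7733 and 7257 UMIs and 1952 and 1898 genes per cell. The lowest member held 4739 UMIs in Control and 3579 in NAPH. The libraries shared 14 barcode sequences, and no cell was a member in both. Cd209a plus Mgl2 ran from 3 to 66 UMIs per member in Control, with a median of 8, and from 3 to 65 in NAPH, with a median of 9. Exactly 3 UMIs were held by 9 Control and 5 NAPH members, and 9 and 10 barcodes lay just outside with 2 UMIs. Both lectin genes were found in 67 Control and 124 NAPH members, Cd209a alone in 14 and 12, and Mgl2 alone in 6 and 15.

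The marker genes were those of myeloid cells rather than of the epithelium that the labels name. All levels are UMIs per 1000000 (CPM) after summing over the members of a library. Wfdc17, which encodes a small secreted protein with a WAP domain, stood at 466 CPM in Control members and 818 in NAPH members. H2-DMb2, a chaperone subunit for loading peptide onto MHC class II, stood at 579 and 491 CPM. Ms4a6c, a gene of the membrane-spanning 4A family, stood at 179 and 316 CPM. The MHC class II invariant chain gene Cd74 was among the most abundant transcripts, at 28910 and 27392 CPM.

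A list of 11 markers of CD11b type dendritic cells holds both rule lectins. Its 9 other genes summed to 515 CPM in Control and 662 in NAPH members. These sums exceeded those in the Xcr1 or Clec9a cells (175 and 141 CPM) but not those in the Ear1, Ear2 or Marco cells (717 and 847 CPM). A list of 8 general dendritic markers, Flt3 and Zbtb46 among them, did not set members apart, at 454 and 471 CPM against 500.3 and 349 in the Ear1, Ear2 or Marco cells. The 10 alveolar macrophage markers that the rule did not use summed to 76.7 and 110 CPM in members, against 13765 and 14579 CPM in those cells. Classical monocyte markers summed to 331 and 411 CPM, and this sum did not set members apart. Their sums were 559 and 392 CPM in Xcr1 or Clec9a cells and 94.0 and 856 in Ccr7, Il4i1 or Fscn1 cells. In Ear1, Ear2 or Marco cells they were 335 and 828 CPM, and in AT2 cells 732 and 1403. Single genes of this list differed from the sum. Ccr2 stood at 229 and 181 CPM in members and at 456 and 309 in Xcr1 or Clec9a cells. It was at 0 and 9.73 CPM in Ccr7, Il4i1 or Fscn1 cells and at 1.79 and 0 in Ear1, Ear2 or Marco cells. In AT2 cells Ccr2 stood at 1.87 and 2.46 CPM. All 8 markers of T or NK cells and all 5 of mast cells or basophils were at 0 in Control members, and T or NK markers summed to 2.66 CPM in NAPH. Neutrophil markers summed to 0 and 7.97 CPM.

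Epithelial RNA was present at levels that differed from gene to gene. Sftpc, the surfactant protein C gene, stood in members at 0.792% of its level in AT2 cells in Control and 2.21% in NAPH. Scgb1a1, the main secretory gene of club cells, stood at 12885 CPM in Control members and 2815 in NAPH members, close to its level in AT2 cells of the same library (13197 and 3036 CPM). Epcam, the gene of the sorted protein, stood at 211 and 185 CPM in members, 110% and 109% of the level in AT2 cells. Krt8 and Krt18, keratin genes of simple epithelia, had 4 and 3 UMIs in all Control members and 13 and 11 in all NAPH members. The part of free RNA from epithelial cells in the member profiles was not tested.

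**Figure D1:**
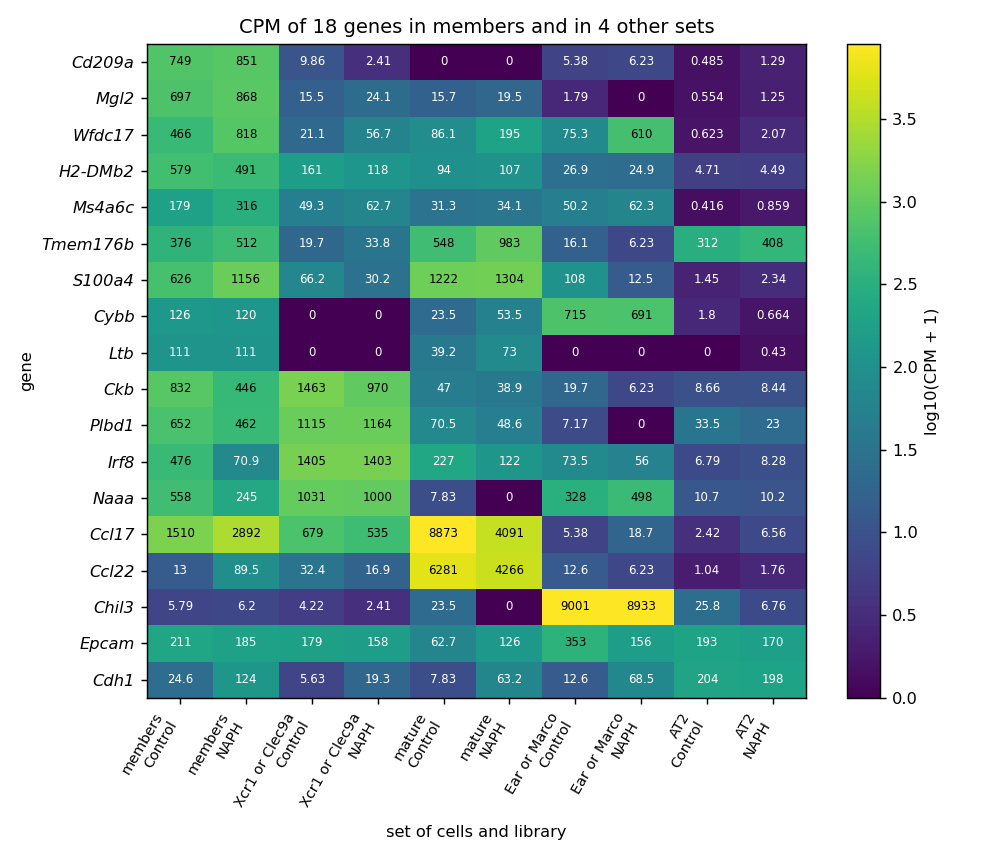
Heat map of CPM, with the value printed in each cell and log10(CPM + 1) as colour, for 18 genes (rows) in members and 4 other sets of cells in the Control and NAPH libraries (columns). Cd209a and Mgl2, which chose the members, stand at 697 to 868 CPM there, while Irf8 stands at 476 CPM in Control members and 70.9 in NAPH members, against 1405 and 1403 in the Xcr1 or Clec9a cells.

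Members made up 2.64% (2.12 to 3.24) of Control barcodes and 4.10% (3.48 to 4.79) of NAPH barcodes, a ratio of 1.55 (1.19 to 2.05). The Xcr1 or Clec9a cells stayed close to level, with 80 barcodes in Control and 82 in NAPH. Mature cells, chosen by Ccr7, Il4i1 and Fscn1, numbered 17 and 25, and cells rich in Ear1, Ear2 or Marco numbered 83 and 24. Of these 4 myeloid sets together, members were 32.6% (27.0 to 38.6) in Control and 53.5% (47.5 to 59.5) in NAPH. These are shares of cells that passed the Epcam sort, which can set them. With every cell thinned to 3000 UMIs before the rule was applied, 63 Control and 150 NAPH barcodes passed, a ratio of 2.13. The limits in raw UMIs were kept, so thinning also loosened those that leave cells out. The part of depth alone in this ratio was not tested.

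Members were not of one kind, and the mixture differed between the libraries. Irf8 RNA lay in 2 separate ranges. In Control, 29 of 87 members (33.3%, 23.6 to 44.3) held at least 4 Irf8 UMIs, and no member of either library held 2 or 3. In NAPH, 6 of 151 members (3.97%, 1.47 to 8.45) held at least 2. Among cells thinned to 3000 UMIs the shares with at least 2 Irf8 UMIs were 28.7% and 3.97%. In AT2 cells, with median depths of 7694.5 and 9616 UMIs, 0.384% and 0.466% held at least 2 Irf8 UMIs. The split by Irf8 was chosen after these values were seen. Near the limit of the rule, Irf8 stood at 883 CPM in Control and 524 in NAPH among members with exactly 3 Cd209a and Mgl2 UMIs. It stood at 994 and 941 CPM among the barcodes just outside, with 2, and at 432 and 52.5 CPM among members with 4 or more.

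The members with Irf8 RNA carried the genes of the Xcr1 type. Of the 29 in Control, 25 held at least 1 Xcr1 or Clec9a UMI, and so did 5 of the 6 in NAPH. In Control their levels were 152 CPM for Xcr1, a chemokine receptor gene, and 282 CPM for Cd207, which encodes langerin. Itgae, the gene of the integrin CD103, stood at 191 CPM in them and Naaa, a lysosomal amidase gene, at 1128 CPM. The 58 other Control members had 4.66 CPM of Xcr1, 0 of Cd207, 25.6 of Itgae and 210 of Naaa. In the opposite direction, the members with Irf8 RNA held 80.0 CPM of Wfdc17, 152 of S100a4 and 3.81 of Sirpa, the gene of a CD11b type surface receptor. The other Control members held 702, 916 and 76.9 CPM of these genes. The 10 markers of the Xcr1 type together summed to 1728 CPM in Control members and 735 in NAPH members, against 3975 and 3967 in the Xcr1 or Clec9a cells. The part of such cells in the differences between libraries is given below by leaving out the members with Irf8 RNA. Of the rule lectins, Cd209a was the closer in Control, at 560 and 865 CPM, while Mgl2 stood at 221 and 988 CPM. In NAPH, where 6 members held Irf8 RNA, Cd209a was not the closer. There it stood at 252 and 884 CPM and Mgl2 at 404 and 894 CPM.

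Counted apart, members with 0 or 1 Irf8 UMI made up 1.76% (1.34 to 2.27) of the Control library and 3.93% (3.33 to 4.61) of the NAPH library, a ratio of 2.24 (1.64 to 3.09). Members with Irf8 RNA made up 0.879% (0.590 to 1.26) and 0.163% (0.0598 to 0.354), a ratio of 0.185 (0.0629 to 0.454). The shares of these 2 kinds of member thus lay in opposite directions, and the tallies of gene lists below are given for all members and for those with 0 or 1 Irf8 UMI.

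**Figure D2:**
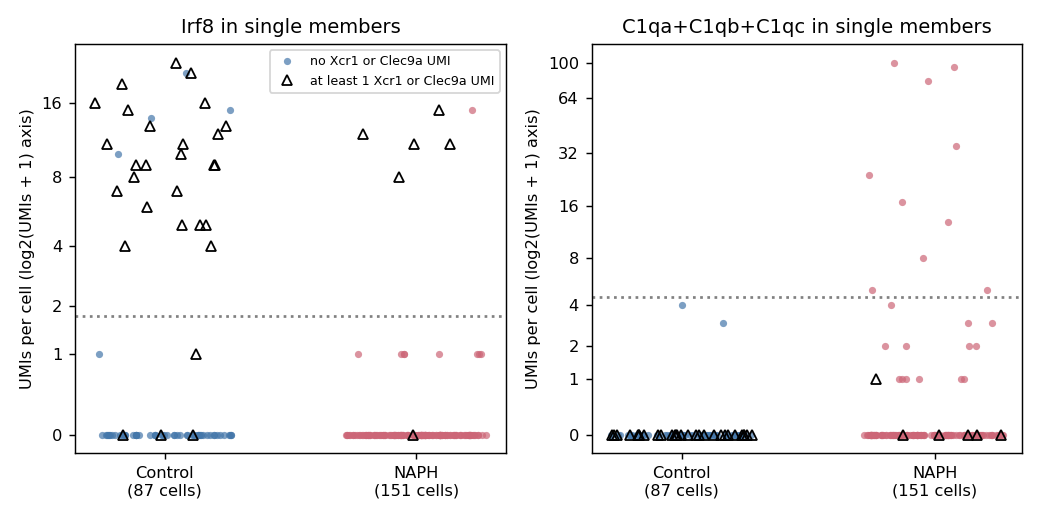
UMIs per cell, on a log2(UMIs + 1) axis, of Irf8 (left) and of C1qa, C1qb and C1qc together (right) in each of the 87 Control and 151 NAPH members. Each point is a cell, open triangles hold at least 1 Xcr1 or Clec9a UMI, dotted lines mark the limits of 2 Irf8 and 5 C1q UMIs, and 29 Control but 6 NAPH cells lie above the Irf8 line while 0 and 10 lie above the C1q line.

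A second kind of member, rich in C1q RNA, was seen in NAPH. C1qa, C1qb and C1qc encode the chains of C1q, the first component of the classical complement pathway and a product of tissue macrophages. At least 5 C1q UMIs were held by 10 of 151 NAPH members (6.62%, 3.22 to 11.8), with 5 to 100 UMIs per cell and a median of 20.5. In Control the count was 0 of 87, which allows a share of up to 3.45% by 3 counts of the total and 4.15% by the exact interval. At least 1 C1q UMI was held by 2 Control members (2.3%) and 24 NAPH members (15.9%), or 2.3% and 11.9% among thinned cells. Those 2 Control members held 7 C1q UMIs together, so low C1q levels were found in both libraries. In AT2 cells these shares at full depth were 0% and 0.815%. Members held 406 of the 1019 C1q UMIs of the NAPH library, and 7 of the 106 in Control.

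The 10 C1q members carried other macrophage genes. Of 13 markers of interstitial macrophages, the 9 other than the C1q genes and Apoe summed to 1219 CPM in them, 79.1 CPM in the other NAPH members and 56.4 CPM in Control members. Apoe, which encodes a lipid carrier, stood at 3296 CPM in them and 24.5 CPM in the other NAPH members, although only 3 of the 10 held any. Ccl7 (1776 against 0.941 CPM) and Ccl2 (1023 against 6.59 CPM), genes of monocyte-attracting chemokines, rested on 3 and 4 of the cells. Mrc1, the gene of the macrophage mannose receptor, stood at 346 and 49.0 CPM, and Lgmn, a lysosomal protease gene, at 391 and 32 CPM. They were found in 5 and 6 of the C1q members. Klrd1, the gene of the lectin-like receptor CD94, was lower in them, at 15 against 212 CPM, and so was the creatine kinase gene Ckb, at 75.2 against 469 CPM. Of 1188 genes compared, 55 were at least 2 times higher in the C1q members and 64 at least 2 times lower (4.63% and 5.39%).

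Between the libraries, 1871 genes had at least 100 UMIs over all members. Of these, 130 were at least 1.5 times higher in NAPH (6.95%) and 105 at least 1.5 times lower (5.61%), and the median log2 ratio was 0.03. Among members with 0 or 1 Irf8 UMI, 1540 genes reached 100 UMIs, with 92 higher (5.97%) and 57 lower (3.7%). The higher genes overlapped in 67, which is 51.5% of those for all members and 72.8% of those for the smaller group. The lower genes overlapped in 29, which is 27.6% and 50.9%. Of the 130 higher and 105 lower genes, 21 and 49 had too few UMIs in the smaller group to be compared there.

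The 12 highest ratios by the naming rule fell into genes spread over many cells and genes held by few. Asgr2, a subunit gene of a galactose-binding lectin, had 11.6 CPM in Control members and 106 CPM in NAPH members, a ratio of 9.19 (4.52 to 21.8). It lies on the same chromosome and strand as Mgl2, at 70092644 to 70106187 of chromosome 11. Its UMIs came from 8 Control and 32 NAPH members, and in NAPH the highest cell held 20 of 120 UMIs and the next 17. Cdh1, the gene of the adhesion protein E-cadherin, stood at 24.6 and 124 CPM (5.04 times, 3.04 to 8.91), with UMIs in 17.2% and 49.7% of members. Relative to AT2 cells the Cdh1 level was 12% in Control members and 62.6% in NAPH members, while in Xcr1 or Clec9a cells it was 2.76% and 9.74%. Cdh1 was also higher in NAPH in the mature cells (7.83 and 63.2 CPM) and in the Ear1, Ear2 or Marco cells (12.6 and 68.5 CPM), so the direction was shared by the 4 myeloid sets, and in AT2 cells its levels were 204 and 198 CPM. The limit on free RNA was applied in NAPH, where Cdh1 was higher and its highest epithelial level was 476 CPM. In Control that level was 369 CPM, and the members' 24.6 CPM lay within reach of free RNA, so the ratio rests on a Control level whose source was not tested.

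Dab2, an endocytic adaptor gene, stood at 46.3 and 166 CPM (3.58 times, 2.45 to 5.38). Ifitm2, a membrane protein gene of antiviral defence, stood at 57.9 and 195 CPM (3.37 times, 2.40 to 4.85). Csf1r, the receptor gene for the macrophage growth factor M-CSF, stood at 47.7 and 124 CPM (2.60 times, 1.77 to 3.92). Arl8b, a gene of lysosome transport, was 2.65 times higher (1.74 to 4.15). Among members with 0 or 1 Irf8 UMI the ratios of Asgr2, Cdh1, Dab2, Ifitm2, Csf1r and Arl8b were 6.76, 3.95, 2.41, 2.26, 1.98 and 2.06, so each stayed above 1.5. In NAPH the 10 members with at least 5 C1q UMIs held Asgr2 at 391 CPM, Csf1r at 587 and Dab2 at 542. Members with 0 C1q UMIs held 63.4, 83.2 and 141 CPM of these genes. Cdh1 went the other way, at 45.1 and 136 CPM.

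Other high ratios rested on few cells. C1qb (31.6 times, 10.6 to 155) and C1qa (29.8 times, 10.0 to 146) had 3 UMIs each in Control, in 1 cell, and 155 and 146 in NAPH, in 23 and 16 cells. Apoe (18.8 times, 9.37 to 43.9) had 245 UMIs in NAPH, of which 2 cells held 98 and 97. For Ccl7 (36.4 times, 9.87 to 304) 1 NAPH cell held 111 of 119 UMIs, and without the C1q members its ratio was 0.325. Mgp, the matrix Gla protein gene, stood at 50.6 and 206 CPM, but 1 NAPH cell held 205 of its 232 UMIs. Without the cell that held most Mgp in each library the ratio was 0.788, and all 37 Col1a1 UMIs and 32 Col1a2 UMIs of the NAPH members, genes of fibroblast collagen, also lay in 1 cell each. The 3 fibroblast markers of the lists summed to 2.89 CPM in Control members and 62.0 in NAPH members, and their part in the Mgp ratio was not tested.

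The 12 lowest ratios held Irf8 and 7 genes whose interval took in 1 once the members with Irf8 RNA were left out. Irf8 itself had 476 CPM in Control members and 70.9 CPM in NAPH members, a ratio of 0.149 (0.115 to 0.191). Naaa (0.440), the palmitoyl thioesterase gene Ppt1 (0.279) and Mpeg1 (0.325), which encodes the pore-forming protein perforin-2, followed. Among members with 0 or 1 Irf8 UMI the ratios of Naaa, Ppt1 and Mpeg1 were 0.909 (0.706 to 1.18), 0.752 (0.449 to 1.29) and 1.01 (0.585 to 1.83), and each of these intervals includes 1. Those of Txndc15 (0.391 in all members), Tbc1d4 (0.408), Phlda1 (0.322) and Clec12a (0.459) also took in 1 there, at 0.725, 0.648, 0.669 and 0.696. Tbc1d4, on 26 and 42 UMIs, was still at least 1.5 times lower there.

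A smaller group of genes was lower in both views, with intervals that stayed below 1. Hpgd, which encodes the enzyme that inactivates prostaglandins, stood at 111 and 44.3 CPM in all members (0.398 times, 0.273 to 0.575). Nearly all of its Control UMIs, 76 of 77, were in members with 0 or 1 Irf8 UMI, where the levels were 177 and 46.8 CPM (0.264 times, 0.181 to 0.382). Cd81, a tetraspanin gene, had ratios of 0.176 in all members and 0.401 (0.238 to 0.676) in those with 0 or 1 Irf8 UMI. The NAPH members' 33.7 CPM of Cd81, against 249 in AT2 cells, lay within reach of free RNA, whose part was not tested. So did the lower levels of Phlda1, in NAPH (36.3 against 371 CPM), and of Apoe, in Control (11.6 against 526 CPM). Xlr, a gene of an X-linked family with near copies, had ratios of 0.351 and 0.413 (0.292 to 0.584). Ccnd2, the cyclin D2 gene, had ratios of 0.443 and 0.405 (0.302 to 0.545), and its ratio in Xcr1 or Clec9a cells was 0.103.

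Ccr2, the receptor that brings monocytes and their progeny into tissue, was higher in NAPH among the members with 0 or 1 Irf8 UMI but not over all members. Over all members its level was 229 CPM in Control members and 181 CPM in NAPH members, a ratio of 0.791 (0.639 to 0.980). Among members with 0 or 1 Irf8 UMI it stood at 65.3 and 181 CPM (2.77 times, 1.85 to 4.27). Members with Irf8 RNA held 495 CPM in Control and 185 in NAPH. Jak2, a kinase gene of cytokine signalling, was also higher among the members with 0 or 1 Irf8 UMI, at 39.6 and 116 CPM (2.93 times, 1.76 to 5.18), against 2.15 times over all members.

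**Figure D3:**
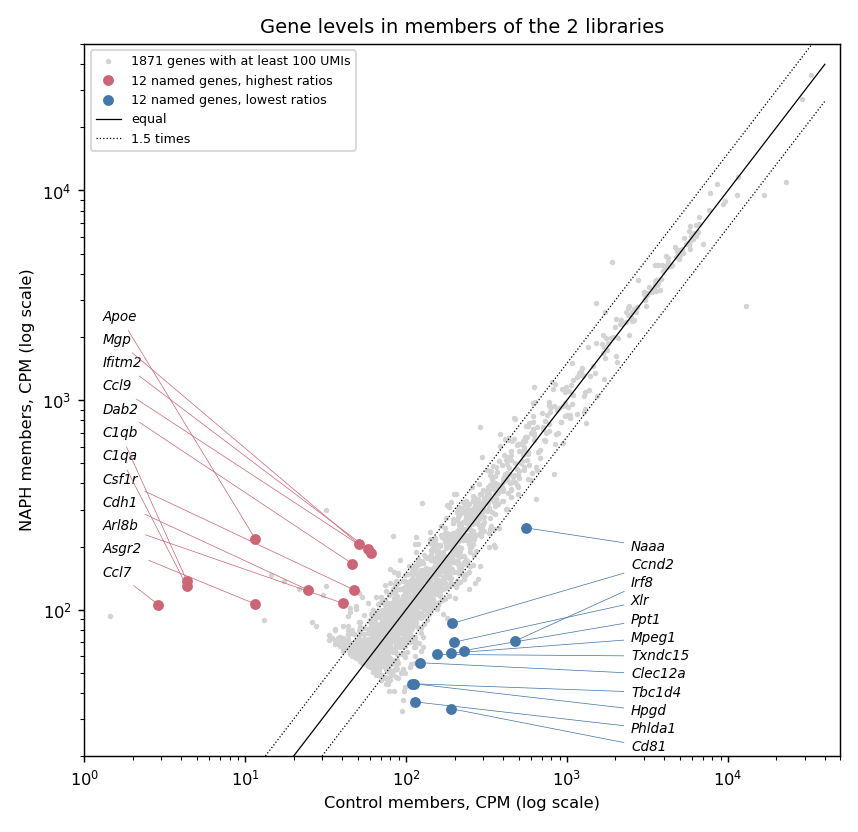
CPM of 1871 genes in the summed UMIs of the 87 Control members (x axis) and the 151 NAPH members (y axis), both on log scales, with the 12 highest and 12 lowest ratios of the naming rule labelled. The solid line marks equal levels and dotted lines a ratio of 1.5 either way, and Irf8 lies farthest below the line among the named genes, at 476 and 70.9 CPM.

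Chemokine genes, whose products guide other leukocytes, were higher in NAPH in 9 of 11 members of their list with at least 30 UMIs and lower in 1. Of all 4900 genes with at least 30 UMIs, the limit used for every list, 12.1% were at least 1.5 times higher and 8.71% lower. Among members with 0 or 1 Irf8 UMI these shares were 13.5% and 7.57% of 4306 genes, and the chemokine tally was 7 higher and 1 lower of 11. Without the C1q members 6 chemokine genes reached 30 UMIs, 4 of them higher and 1 lower, and the median log2 ratio was 0.88, against 1.62 with them. Ccl17, a ligand of the receptor Ccr4 on helper T cells, was by far the most abundant. Its level was 1510 CPM in Control members and 2892 CPM in NAPH members, a ratio of 1.92 (1.79 to 2.06), with UMIs in 69 of 87 and 126 of 151 members. Among members with 0 or 1 Irf8 UMI its levels were 1396 and 2881 CPM (2.06 times, 1.89 to 2.26). The level varied among members. In NAPH, Ccl17 stood at 2350 CPM in members with 0 C1q UMIs, 5928 with 1 to 4 and 6155 with at least 5. In members with 0 Ear1, Ear2 and Marco UMIs it stood at 1421 CPM in Control and 1878 in NAPH. With 1 to 3 such UMIs it stood at 1658 and 4142 CPM, and with 4, in NAPH only, at 2679. In Xcr1 or Clec9a cells Ccl17 stood at 679 and 535 CPM, and in mature cells at 8873 and 4091 CPM.

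Ccl22, the second Ccr4 ligand, had levels of 13 and 89.5 CPM (6.87 times, 3.48 to 15.5), from 7 and 21 cells. Ccl9, a macrophage chemokine gene, stood at 60.7 and 187 CPM (3.08 times, 2.20 to 4.39), from 22 and 74 cells, and was at 0 in the members with Irf8 RNA of both libraries. Cxcl2, whose product attracts neutrophils, had 5 UMIs in Control and 43 in NAPH (5.27 times, 2.09 to 17.0). For Ccl12 no UMI was found in Control members and 65 in NAPH members, 63 of them in 1 cell. Against a floor of 3 counts summed over the Control members this is at least 13.3-fold higher. For Ccl2 1 cell held 49 of 75 UMIs and for Ccl5 60 of 83. Ccl6 was the lower one, at 230 and 141 CPM (0.613 times, 0.489 to 0.768).

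The bases around a match in the Ccl17 promoter are shown because Ccl17 was the most abundant gene of this list, and those of Hmgcs1 because the lipid list below contains it. The sequences are from RefSeq (GRCm38.p6), 5′ to 3′ on the plus strand. Capitals mark, in Ccl17, the match to TTC and GAA with any 4 bases between them, the spacing that STAT6 favours, and, in Hmgcs1, the match to TCACNCCAC, a sterol regulatory element type.
Ccl17, chr8:94810274-94810333: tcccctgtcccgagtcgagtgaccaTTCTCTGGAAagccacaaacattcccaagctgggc
Hmgcs1, chr13:119690189-119690247: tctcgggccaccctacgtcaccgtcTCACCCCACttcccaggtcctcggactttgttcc
Searched on both strands of the 250 bases before each start, the STAT6 type motif was found in 1923 of 32851 promoters (5.85%) and in 1 of the 11 chemokine promoters given. TCACNCCAC was found in 346 promoters (1.05%) and in 1 of the 16 promoters given for the lipid list. A match describes letters in this window and is not evidence of binding.

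C-type lectin receptors split by kind of member. Of 16 with at least 30 UMIs, 7 were higher in NAPH, 4 lower and 5 between, and among members with 0 or 1 Irf8 UMI 7 of 14 were higher and 2 lower. Clec4n, the dectin-2 gene, stood at 26.0 and 86.8 CPM (3.34 times, 2.0 to 5.86). Mrc1 stood at 15.9 and 66.4 CPM (4.18 times, 2.21 to 8.72), and Clec10a, the close relative of Mgl2, at 14.5 and 33.7 CPM (2.33 times, 1.14 to 5.24). Cd209d had 2 UMIs in Control and 49 in NAPH (15 times, 3.94 to 127), and Clec4a3 had 1 and 38 (23.3 times, 3.93 to 943). Both passed the limit of 30 UMIs only through NAPH, so the limit itself favoured their place among the higher genes. The rule lectins, given as a description, had ratios of 1.14 for Cd209a and 1.25 for Mgl2. Both are counted in the 16, among the 5 between. Cd207 (0.058) and Clec9a (0.186), genes found mainly in the members with Irf8 RNA, had low ratios. Cd209b was lower in both views, at 0.328 (0.163 to 0.636) over all members and 0.215 among those with 0 or 1 Irf8 UMI.

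**Figure D4:**
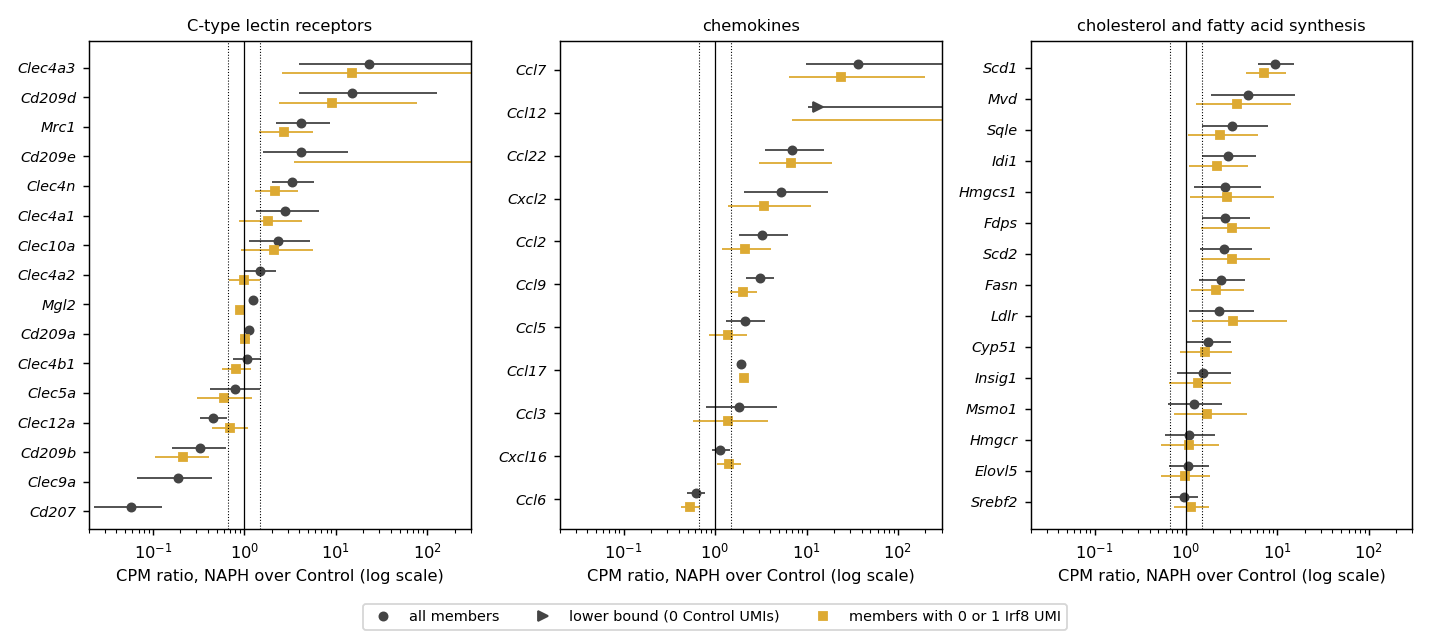
CPM ratio of NAPH over Control members, on a log scale, for genes with at least 30 UMIs in 3 lists, over all members (dark circles) and over members with 0 or 1 Irf8 UMI (yellow squares), with 95% counting intervals as lines, which the right edge can cut off. A yellow line without a square is a ratio against a count of 0, a missing yellow row had too few UMIs, and dotted lines mark 1.5 times either way, which Ccl17 and 11 of the 15 lipid synthesis genes plotted exceed on the high side.

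Cholesterol and fatty acid synthesis genes were higher in NAPH in 12 of 16 and lower in 0, with a median log2 ratio of 1.34 against 0.04 for all genes with at least 30 UMIs. The same tally, 12 of 16, held among members with 0 or 1 Irf8 UMI, with a median of 1.17. The counts behind single genes were low. Mvd of the mevalonate pathway had 5 UMIs in Control and 39 in NAPH (4.78 times, 1.88 to 15.5). Sqle, the squalene epoxidase gene, had 8 and 42 (3.22 times, 1.49 to 7.93). Hmgcs1 had 8 and 35 (2.68 times, 1.22 to 6.69). Scd1, which encodes the stearoyl-CoA desaturase, had 22 and 336 UMIs (9.36 times, 6.08 to 15.1), but Scd1, Scd2, Fasn and Fdps, 4 of the 16, stood in members below 0.2 times their level in epithelial cells. The whole list summed to 434 CPM in Control and 1047 in NAPH members. In AT2 cells it summed to 4834 and 14190 CPM and in Ear1, Ear2 or Marco cells to 540 and 2042 CPM. In Xcr1 or Clec9a cells it summed to 353 and 643 CPM, so the direction was shared by these sets. In mature cells the list summed to 1363 and 1362 CPM. Sftpc, the most abundant AT2 gene, was itself 2.40 times higher in NAPH members, and the part of free RNA in these ratios was not tested.

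Genes of antigen presentation were mostly within 1.5 times of level. Of 10 MHC class II and loading genes, 0 were higher and 1, H2-Ob, was lower (0.597, 0.428 to 0.831), with Cd74 at 0.948 and H2-Ab1 at 0.828. In the smaller group, that of members with 0 or 1 Irf8 UMI, H2-Ob had a ratio of 0.913 (0.582 to 1.47), and 1 gene was higher, the class II transactivator Ciita (1.69, 0.948 to 3.19), with 0 lower. Of 11 MHC class I and loading genes, 0 were higher and 3 lower, against 0 and 1 among members with 0 or 1 Irf8 UMI. H2-Q7, a class Ib gene with near copies, stood at 70.9 and 15.9 CPM (0.225 times, 0.123 to 0.393, and 0.287 in the smaller group), and Psmb9, an immunoproteasome subunit gene, at 181 and 91.3 CPM (0.505 times, 0.385 to 0.660). Psmb9 had a ratio of 0.883 among members with 0 or 1 Irf8 UMI. Cst3, the cystatin C gene, was the third most abundant transcript, at 22817 and 10976 CPM (0.481 times, 0.470 to 0.493), and at 16621 and 10246 CPM among members with 0 or 1 Irf8 UMI. Of 6 costimulation genes 2 were higher and 2 lower. Cd86, a ligand gene for T cell activation, had a ratio of 0.592 (0.407 to 0.862), and Cd83, a marker of maturation, 2.39 (1.17 to 5.37). In the smaller group 1 was higher, Cd83 at 2.81 (1.1 to 9.18), and 0 lower, with Cd86 at 0.688 (0.423 to 1.14).

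Immediate early genes, which respond within minutes to handling and to signals, were lower in 6 of 23 and higher in 4. Egr1 stood at 269 and 135 CPM (0.501 times, 0.401 to 0.624) and Klf2 at 95.5 and 23.9 CPM (0.251 times, 0.154 to 0.398). Fosl2 (4.59 times, 1.95 to 13.2) and Socs3 (1.67 times, 1.24 to 2.27) were higher. In the smaller group the tally was 7 lower and 1 higher. There Egr1 had a ratio of 0.433, Fosl2 3.61 (1.44 to 11.7) and Socs3 1.21 (0.888 to 1.67). Klf2 had 0.566 (0.292 to 1.12) there, an interval that takes in 1. Of 9 heat shock genes 0 were higher and 0 lower, against 0 and 1 in the smaller group.

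Cytokine genes were lower in 3 of 8 and higher in 1, against 2 and 1 of 5 among members with 0 or 1 Irf8 UMI. Il1b had 4 UMIs in Control and 84 in NAPH (12.9 times, 4.84 to 48.3), with 33 of the 84 in 1 cell. Il18 stood at 50.6 and 15.1 CPM (0.298 times, 0.156 to 0.546). In the smaller group Il1b and Il18 had ratios of 8.43 and 0.325. In a list of the type 2 response, 6 of 10 genes were higher and 1 lower in both views. The 10 include the rule gene Mgl2, which was neither, and Ccl17, Ccl22, Mrc1 and Clec10a of the 6 were already named above. Il4ra, a receptor chain for interleukin 4 and interleukin 13, had 9 and 36 UMIs (2.45 times, 1.16 to 5.78), whereas Il13ra1 stood at 114 and 60.2 CPM (0.527 times, 0.376 to 0.739). In the smaller group these ratios were 1.81 (0.825 to 4.5) and 0.597 (0.403 to 0.892). Retnla, another of the 6, stood at 14.5 and 147 CPM. It lay within reach of free RNA from epithelial cells, where its highest level was 17633 CPM in NAPH. All 4 Ms4a genes with at least 30 UMIs were higher, led by Ms4a4c with 1 and 74 UMIs (45.3 times, 7.89 to 1814), and 2 of 4 were among members with 0 or 1 Irf8 UMI.

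Among transcription factors, 4 of 18 were higher and Irf8 was the 1 lower, against 2 and 0 of 16 among members with 0 or 1 Irf8 UMI. Irf4, a factor of the CD11b type, had 15 UMIs in Control and 47 in NAPH (1.92 times, 1.05 to 3.70), and 1.26 times among members with 0 or 1 Irf8 UMI. Spi1, the gene of the myeloid factor PU.1, stood at 516 and 502 CPM and Id2, needed for dendritic cells, at 1270 and 1049 CPM. For cell cycle genes 0 of 10 were higher and 0 lower, in cells chosen for little Mki67 and Top2a RNA. Of 19 cytokine receptors 6 were higher and 2 lower, against 4 and 2 of 18 in the smaller group, and of 13 lysosomal proteases and inhibitors 5 and 1, against 3 and 1. Complement and apolipoprotein genes had 5 of 8 higher and 1 lower, and 6 and 0 in the smaller group. Without the C1q members 5 of these genes reached 30 UMIs, with 2 higher and 1 lower, and the median log2 ratio was 0.15 instead of 2.42. S100, annexin and galectin genes had 4 of 14 higher and 0 lower (3 and 0 in the smaller group), pattern recognition genes 3 of 7 and 0 (4 and 0). Glycolysis genes had 1 of 12 higher and 0 lower, against 2 and 1 of 11.

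Against the 3 most alike sets, a gene was counted when it was at least 2 times higher, or lower, in members in both libraries. Against Xcr1 or Clec9a cells, 92 of 3910 genes were higher in members (2.35%) and 47 lower (1.2%). Cybb, the gene of the NADPH oxidase subunit gp91phox, had 87 UMIs in Control and 135 in NAPH members and 0 in the other set, which makes it at least 29.8-fold higher in Control against a floor of 3 counts. Ltb, the lymphotoxin beta gene, had 77 and 125 UMIs, likewise against 0. Tmem176b, a cation channel gene, stood at 376 and 512 CPM in members against 19.7 and 33.8. S100a4, a calcium-binding protein gene, stood at 626 and 1156 CPM against 66.2 and 30.2. Lower genes included Cd36, a scavenger receptor gene, at 52.1 and 26.6 CPM in members against 180 and 131 in the other set.

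Against mature cells, 365 of 2663 genes were higher in members (13.7%) and 199 lower (7.47%). Alox5ap, needed to make leukotrienes, stood at 911 and 784 CPM in members against 70.5 and 9.73. Apol7c had 0 UMIs in members of both libraries and 105 and 174 in mature cells, and Ccl22 stood at 6281 and 4266 CPM in mature cells. Against Ear1, Ear2 or Marco cells, 263 of 3660 genes were higher (7.19%) and 544 lower (14.9%). Plbd1, a phospholipase B type gene, stood at 652 and 462 CPM in members against 7.17 and 0. Chil3, the chitinase-like gene Ym1 of macrophages, stood at 5.79 and 6.2 CPM in members against 9001 and 8933.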

How the data were processed

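The authors deposited raw UMI counts per gene and barcode, made with Cell Ranger against mm10 per the submitters' processing notes. The sources used here give neither the version nor the rule that called cells. The members and the gene lists were chosen with earlier results of these data known. UMIs were summed over members per library and scaled to CPM, and each ratio divides NAPH by Control, with an exact Poisson interval conditional on the sum. Genes named as highest or lowest had at least 100 UMIs and at least 100 CPM in a library. Ribosomal, mitochondrial, haemoglobin, immunoglobulin, predicted and rule genes were passed over, as were Xist, Tsix and genes of the Y chromosome. Other X-linked genes, such as Xlr, were kept. Genes within reach of free RNA were also passed over (below 0.2 times the highest level in AT2, club or ciliated cells, in the library where members held more). From each list up to 4 highest and 4 lowest genes with at least 30 UMIs could be named. The UMI limits were set on both libraries together, so a gene with few UMIs in 1 library passed them only through the other. Other genes named, such as those set beside the Irf8 split, were chosen after their values were seen. AT2 cells were gated by Sftpc. Cells were thinned to 3000 UMIs where depth could matter. Scrublet (scanpy 1.11.5) called 0.243% of Control and 0.163% of NAPH barcodes, too few to have worked. In its place the highest scores were removed as an alternative, at 0.8% per 1000 barcodes, 0 and 1 members among them. TMM scaling used edgeR 4.0.16. Of 28692 gene IDs, 28416 were found in GENCODE vM21 (GRCm38). Ratios were tested on simulated counts. The sources used here do not say how reads were split among near copies, such as the Ms4a, Cd209 and H2-Q genes. The values of 1 gene counted in the lipid synthesis list are not reported here.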

Additional observations from a re-analysis of the deposited data

Results flagged for a closer look

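The rule left out 40 NAPH barcodes that held at least 3 Cd209a and Mgl2 UMIs because they also held at least 5 UMIs of Ear1, Ear2 and Marco. They were 18% (13.2 to 23.7) of the NAPH barcodes with that much Cd209a and Mgl2 RNA, against 3 barcodes, or 2.88% (0.599 to 8.20), in Control. They are cells outside the comparisons above. The 40 held Cd209a at 1036 CPM, Mgl2 at 963 CPM, Wfdc17 at 978 CPM and Ccl17 at 5130 CPM. Ear1, Marco and Fabp4 were at 0 in them and Chil3 stood at 6.04 CPM, against 8933 CPM in the NAPH cells chosen by Ear1, Ear2 or Marco. The limit thus acted through Ear2, which stood at 969 CPM in the 40. Members also held Ear2, at 73.8 CPM in Control and 131 in NAPH. With this limit dropped, members numbered 90 and 185 and the ratio of their shares was 1.84.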

How the results depend on the processing

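No paired analysis was possible because there was 1 library per group. With cells thinned to 3000 UMIs and the raw limits of the rule kept, the ratio of member shares was 2.13. In thinned counts of the original members 48 genes were higher and 39 lower, with 740 genes tested. Without members with at least 2 Irf8 UMIs (chosen after seeing the data) the ratio was 2.24 and 57 genes were lower. A limit of 50 UMIs per gene gave 320 higher and 223 lower of 3369, and a fold of 2 gave 39 and 21. Without the C1q members Ccl7 turned to -1.62 on the log2 scale. Without members with Irf8 RNA Mpeg1 turned to 0.0194. Irf8 itself turned to 0.68 there, on 2 and 8 UMIs, a value set by the choice of cells on Irf8. Mgp turned to -0.34 without the cell holding most of it in each library. Of 348 values of the named genes under other settings, 314 stayed within the main counting interval, 30 moved outside it and 4 changed sign. This Irf8 value is among the 4. Of 271 list medians, 268 stayed and 3 moved. TMM scaling moved all log2 ratios by 0.01 and gave 131 higher and 101 lower. Depth limits genes under 30 UMIs, which were not compared.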
